A study of Mus musculus with 2 samples.

Results

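Pdx1, Mafa, Nkx6-1, Nkx2-2, Neurod1, Isl1, Pax6, Rfx6 and Insm1 are transcription factors of islet β cells or of islet endocrine cells in general. They are 9 of the 31053 genes in the count tables, were taken by symbol, and were all found. Their messenger RNA was followed by droplet single cell RNA sequencing of dispersed islets in 2 libraries, 1 of WT mice and 1 of Npc1-/- mice. The latter lack Npc1, which moves cholesterol out of lysosomes, in every tissue and not only in β cells. Mice of both genotypes were 2 weeks old, female and on a C57BL/6J background, the WT animals being littermates, and each library was made from the pooled islets of 3 mice. With 1 pool per genotype, a difference between genotypes cannot be told apart from one between pools or libraries. No p-value is therefore given, and each interval below is a 95% interval that covers counting error only.

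These factors are worked by cells in overlapping sets. Pdx1 and Nkx6-1, homeodomain proteins, and Mafa, a basic leucine zipper protein, bind insulin and other β cell genes, and Mafa is known for its late rise as β cells mature. Nkx2-2, Isl1 and Pax6 (homeodomain), Neurod1 (basic helix-loop-helix), Rfx6 (winged helix) and Insm1 (zinc finger) act in several endocrine lineages, where they first help to form hormone cells and later hold their identity.

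In the GENCODE annotation of GRCm38 (mm10, the build of the deposited counts) all 9 are protein-coding genes. Pdx1 lies at chr5:147269959-147275848 on the plus strand and Nkx6-1 on the minus strand of the same chromosome at chr5:101658139-101664996. Chromosome 2 holds Neurod1 (chr2:79452521-79456751, minus), Pax6 (chr2:105668900-105697364, plus), Insm1 (chr2:146221921-146225020, plus) and Nkx2-2 (chr2:147177546-147194243, minus). Mafa lies at chr15:75745490-75748228 (minus), Rfx6 at chr10:51677756-51730432 (plus) and Isl1 at chr13:116298281-116309689 (minus). An antisense gene overlaps Nkx2-2 (Nkx2-2os, chr2:147184083-147331681, plus) and the start of Pax6 (Pax6os1, chr2:105536080-105670330, minus). Whether the counting used strand is not given in the sources used here. Nkx2-2os stayed at 0 to 6 UMIs in every class and library, whereas Pax6os1 had 392 UMIs in the WT and 398 in the Npc1-/- PP-low insulin cells, 9.53 and 12.7 per 1000000 UMIs (CPM).

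The promoters of Isl1 and Rfx6 are shown because these were the members past 1.2-fold between genotypes in PP-low insulin cells, as described below, Isl1 on the lower and Rfx6 on the higher side. RefSeq promoter windows for GRCm38.p6, from 250 bases before to 50 after a start, were found for 7 of the 9 members (8 windows, 2 of them of Pax6) and not for Mafa and Insm1. Only bases upstream of the annotated exon are printed, 5′ to 3′ on the strand of the gene. The capitals mark the homeodomain core TAAT or its reverse complement and, where present, the E-box CANNTG, which basic helix-loop-helix proteins bind. For Isl1 the stretch is chr13:116309690-116309938 on the minus strand (249 bases, 71.1% G or C). For Rfx6 it is chr10:51685268-51685517 on the plus strand (250 bases, 44% G or C), which lies before the start of a shorter transcript and within an intron of the longer ones.
Isl1: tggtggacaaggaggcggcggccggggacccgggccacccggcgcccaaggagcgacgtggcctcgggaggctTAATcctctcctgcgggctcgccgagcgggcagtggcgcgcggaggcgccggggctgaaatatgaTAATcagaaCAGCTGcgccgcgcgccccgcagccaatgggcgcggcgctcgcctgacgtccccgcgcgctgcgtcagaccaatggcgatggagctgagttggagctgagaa
Rfx6: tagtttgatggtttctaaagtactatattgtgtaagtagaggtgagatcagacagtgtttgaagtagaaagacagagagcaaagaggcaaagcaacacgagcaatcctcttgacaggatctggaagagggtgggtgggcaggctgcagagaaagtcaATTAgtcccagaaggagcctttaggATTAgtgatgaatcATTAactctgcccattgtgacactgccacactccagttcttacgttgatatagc
The printed Isl1 stretch held 2 cores and 1 E-box, and that of Rfx6 held 3 cores and no E-box. The full windows of 300 bases held 2 cores and 1 E-box for Isl1 and 5 cores and 1 E-box for Rfx6. Both motifs are common, since 58% of the 32851 windows of 300 bases held TAAT on either strand and 72.3% held CANNTG. The E-box CACGTG, a special case of CANNTG, was in 7.15% of all windows and, among the members, in the windows of Nkx2-2 and Pdx1, with 1 match each. TGCTGA, part of the element that Maf proteins bind, was in 19.5% of all windows and in those of Neurod1 (2 matches) and Nkx6-1 (1 match). A match describes the letters of this window and is not a bound site.

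Barcodes were kept where they had over 1000 genes, fewer than 50000 UMIs, a mitochondrial share below 10% and no more than 0.1% of UMIs from haemoglobin genes. This left 4628 of 8569 WT and 4269 of 7646 Npc1-/- barcodes with 94096566 and 94392651 UMIs. Each was classed by the hormone (Ins1 with Ins2, Gcg, Sst, or Ppy with Pyy) that took the largest share of its UMIs, at 10% or more. Insulin cells were split at 1% of UMIs from Ppy and Pyy into PP-low (1342 WT and 1005 Npc1-/- cells) and PP-rich (491 and 821). Glucagon cells numbered 1048 and 857, somatostatin cells 189 and 141, and PP cells 411 and 442. Endothelial cells (445 and 452), with at least 4 of 8 endothelial markers and no leading hormone, should lack all 9 factors. Of 7 β cell markers, 7 had at least 5 CPM in both insulin classes, and so did 7 of 7 α cell markers in glucagon cells, 4 of 5 δ cell markers in somatostatin cells and 4 of 4 PP cell markers in PP cells. These counts do not tell the classes apart. In both libraries the 4 PP cell markers also reached 5 CPM in endothelial cells, and the 7 α cell markers did in PP cells. The lists also hold the hormone genes that formed the classes. Npc1 itself was at 8.4 CPM in the kept WT and 4.14 in the kept Npc1-/- barcodes, a ratio of 0.493 (0.436 to 0.558). The part of Npc1 that the allele lacks is not given in the sources used here, so this ratio checks the labels only in part. Insulin transcripts in endothelial cells reached 3.06% of their insulin cell level in WT and 1.78% in Npc1-/-, a measure of free RNA. Stress genes took more of the summed UMIs in WT than in Npc1-/- in every class (0.0739% against 0.0205% in PP-low insulin cells), and their part in the ratios below was not tested.

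UMIs were summed over the cells of a class in a library and divided by the class total, giving CPM. Counts are of 3′ ends, so gene length was not applied, and levels are compared for 1 gene between classes rather than between genes. Among the 5 hormone classes, Pdx1, Mafa and Nkx6-1 were highest in insulin cells, and the other 6 were spread over all hormone classes. On the CPM scale in WT, Mafa had the narrowest pattern of the 9, with a level in PP-low insulin cells 42.5 times that of its lowest hormone class. Pax6 had the broadest, with 1.58 times between its highest and lowest hormone class. In Npc1-/- these folds were 67.4 for Mafa and 1.68 for Pax6, and the smallest was that of Neurod1 (1.63). The lowest Mafa level was that of PP cells in WT (5.52 CPM) and of somatostatin cells in Npc1-/- (3.7 CPM). Neither exceeded the endothelial level (13.8 and 7.78 CPM), so both Mafa folds are against a level that is not read as expression.

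**Figure D1:**
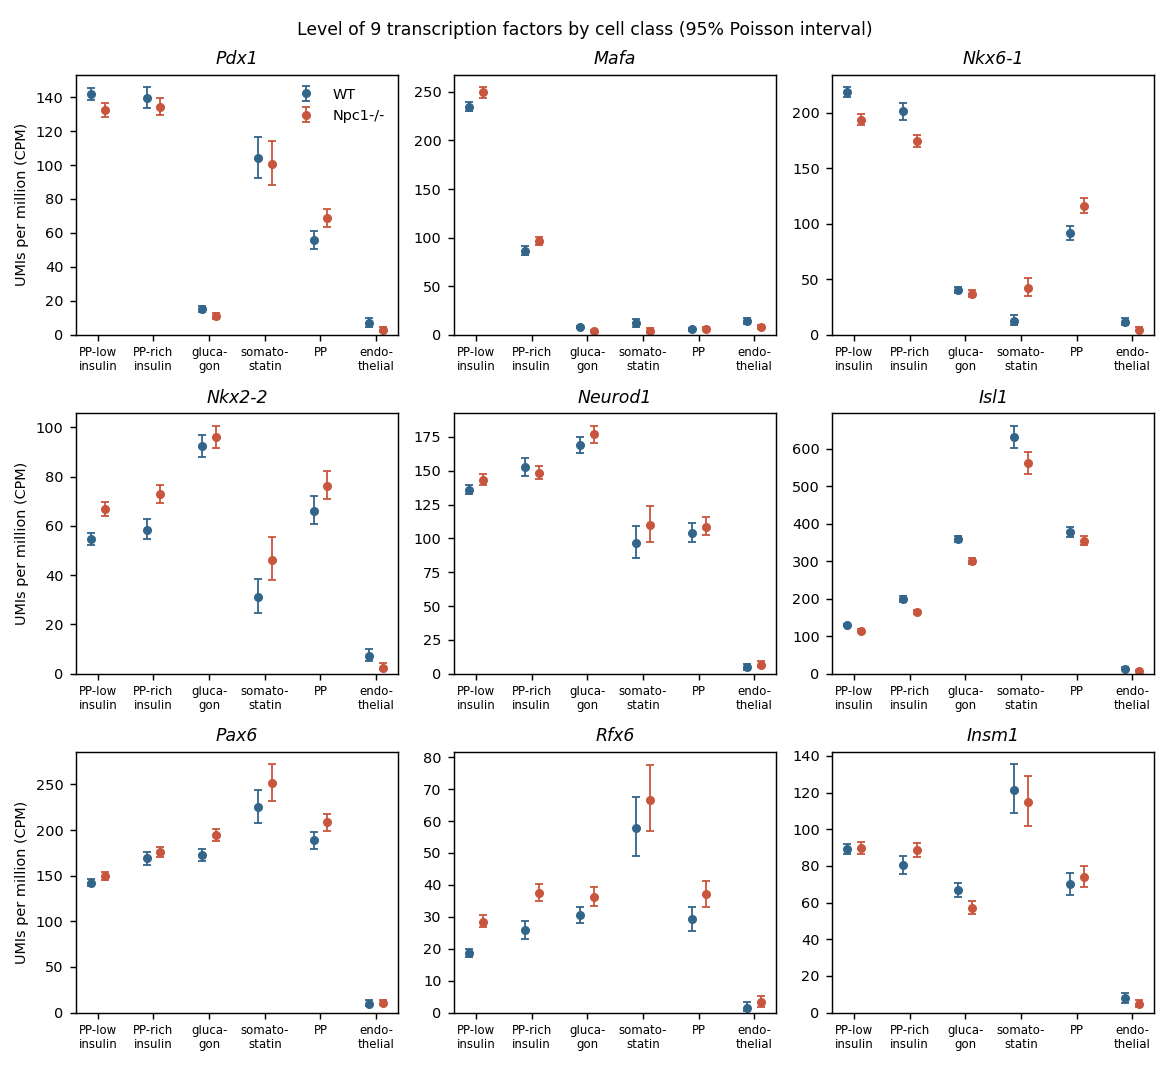
Level of each factor (y axis, CPM, from 0) in 6 cell classes (x axis) of the WT (blue) and Npc1-/- (red) library, with 95% Poisson intervals for counting error. Mafa stands apart in insulin cells, Isl1 is highest in somatostatin cells (631 and 561), and the highest endothelial level of any factor is 13.8.

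Pdx1, which is needed to form the pancreas and later holds β cell identity, stood at 142 CPM (138 to 146) in WT and 132 (128 to 136) in Npc1-/- PP-low insulin cells. In PP-rich insulin cells it was 140 and 134 CPM, and the intervals of the 2 insulin classes overlapped within each library. Somatostatin cells followed with 104 and 101 CPM, then PP cells with 55.8 and 68.7. Glucagon cells had 15.1 and 10.9 CPM, against 6.81 and 3 in endothelial cells. The order of hormone classes below the insulin cells was the same in both libraries.

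Mafa, the activator of insulin genes that marks maturing β cells, was at 235 CPM (230 to 239) in WT and 249 (244 to 255) in Npc1-/- PP-low insulin cells. PP-rich insulin cells had 86.7 and 96.5 CPM. Glucagon, somatostatin and PP cells had 8.11, 11.8 and 5.52 CPM in WT and 4.19, 3.7 and 5.99 in Npc1-/-. Endothelial cells, with 13.8 and 7.78 CPM, were at or above these 3 classes in both libraries, with overlapping intervals for somatostatin cells of both libraries and Npc1-/- PP cells. Scaled by insulin transcripts, free RNA would give 6.05 and 3.29 CPM in endothelial and 4.09 and 2.77 in glucagon cells, and Mafa exceeded that estimate in both. Since endothelial cells should lack Mafa, levels up to theirs are not read as expression. In WT somatostatin cells it exceeded it too (4.69), and in PP cells and Npc1-/- somatostatin cells its interval held it.

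Nkx6-1, which keeps β cells from taking on other islet fates, was at 219 CPM (215 to 224) in WT and 194 (189 to 199) in Npc1-/- PP-low insulin cells, and at 201 and 174 in PP-rich ones. PP cells had 91.7 and 116 CPM and glucagon cells 40.5 and 37. Somatostatin cells had 12.9 CPM (8.98 to 17.9) in WT, a level whose interval overlapped that of endothelial cells (11.9), and 42.4 (34.6 to 51.4) in Npc1-/-. In the latter, 5 of the 141 cells gave 50 of the 103 UMIs (48.5%).

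Nkx2-2, a repressor and activator of early endocrine fate, had its highest level among hormone classes in glucagon cells, at 92.5 CPM in WT and 96 in Npc1-/-. Lower levels followed in PP cells (66.1 and 76.3), PP-rich insulin cells (58.5 and 72.9), PP-low insulin cells (54.6 and 66.8) and somatostatin cells (30.9 and 46.1), the neighbours from PP to PP-low insulin cells overlapping in their intervals. Neurod1, which acts from endocrine precursors onwards and binds the insulin promoter, varied little, from 96.5 in somatostatin to 169 CPM in glucagon cells of WT and from 109 in PP to 177 in glucagon cells of Npc1-/-. For both genes the glucagon CPM interval lay above those of the 4 other hormone classes in each library. Set against the median gene, Neurod1 was instead higher in PP-low insulin than in glucagon cells. Its log2 ratio was 0.28 (0.21 to 0.34) in WT and 0.22 (0.16 to 0.29) in Npc1-/-. For Nkx2-2 this ratio was -0.17 and 0.00.

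Isl1, a LIM-homeodomain factor of all hormone cells, formed the steepest gradient among the pan-endocrine members, and insulin cells, where Mafa was highest, had the least of it among hormone classes. Somatostatin cells had 631 CPM (601 to 661) in WT and 561 (532 to 592) in Npc1-/-, PP cells 379 and 354, and glucagon cells 359 and 301. PP-rich insulin cells had 198 and 164 CPM and PP-low insulin cells 130 and 114. Pax6, which activates hormone genes, followed the same order of classes by CPM at a smaller range, from 225 and 251 CPM in somatostatin to 142 and 150 in PP-low insulin cells. Set against the median gene, Pax6 in PP-low insulin cells was not lower in this way. Its log2 ratios were 0.31 and 0.15 over glucagon, 0.12 and -0.03 over somatostatin and 0.09 and 0.01 over PP cells. Those of Isl1 were -0.88 and -0.87, -1.50 and -1.58, and -1.04 and -1.15.

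Rfx6, needed for endocrine cells to form and for insulin release, was likewise highest, among hormone classes, in somatostatin cells, at 57.8 CPM in WT and 66.6 in Npc1-/-. By CPM its lowest hormone class was the PP-low insulin cells, with 18.6 CPM (17.3 to 20) in WT and 28.5 (26.7 to 30.4) in Npc1-/-. Set against the median gene this rank did not hold. The log2 ratio of PP-low insulin over glucagon cells was -0.12 (-0.28 to 0.04) in WT and 0.18 (0.03 to 0.33) in Npc1-/-. Over PP cells it was -0.15 (-0.36 to 0.07) and 0.11 (-0.07 to 0.29). Insm1, a zinc finger factor of endocrine formation, had 122 and 115 CPM in somatostatin cells and 89.2 and 89.9 in PP-low insulin cells. Its lowest level among hormone classes, 66.7 and 57, was in glucagon cells. Against the median gene, Insm1 was instead higher in PP-low insulin than in somatostatin cells. That log2 ratio was 0.33 (0.17 to 0.50) in WT and 0.36 (0.18 to 0.55) in Npc1-/-. A small class of 26 WT and 123 Npc1-/- barcodes with no leading hormone but at least 1% of UMIs from Chga and Chgb, the granins of secretory granules, had high levels of Nkx6-1 (378 and 355 CPM), Pax6 (363 and 351) and Neurod1 (285 and 285), with Mafa at 18.6 and 5.51. By CPM these were the highest levels of Nkx6-1, Pax6 and Neurod1 in any named class, as were those of Nkx2-2 (130 and 153). Insulin took 1.91% and 1.41% of UMIs in this class, against 53.8% and 53% in PP-low insulin cells. No ratio against the median gene was formed for it, so the ranking is of CPM only. In WT, 5 of the 26 cells gave 43.4% of the Nkx6-1, 34.2% of the Pax6, 42.4% of the Neurod1 and 45.2% of the Nkx2-2 UMIs. The WT interval of Nkx2-2 (93.86 to 176, from 42 UMIs) overlapped that of glucagon cells (88.15 to 96.97), so its rank in WT is not settled. Rfx6 in these barcodes was at 34.1 CPM in WT and 115 in Npc1-/-, and the WT value rests on 11 UMIs.

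To compare cells of unequal depth, each was thinned to 5000 UMIs, and shallower cells were left out (at most 35 per hormone class and library, 47 WT and 32 Npc1-/- endothelial cells). Mafa then had a UMI in 60.8% (58.1 to 63.5) of WT and 59.9% (56.7 to 62.9) of Npc1-/- PP-low insulin cells, and in 29.7% and 29.8% of PP-rich ones. In glucagon, somatostatin and PP cells the Mafa share was 1.63% to 3.87%, below the 8.04% and 4.29% of endothelial cells, and is not read as expression, although the endothelial level itself exceeds the free RNA estimate. Isl1 reached 92.3% of WT and 91.4% of Npc1-/- somatostatin cells. Rfx6 was found in 9.1% (7.6 to 10.8) of WT and 14% (11.9 to 16.3) of Npc1-/- PP-low insulin cells, against 1.01% and 1.67% of endothelial cells. Thinned to 2500 UMIs, the same cells gave 5.4% (4.25 to 6.75) and 5.27% (3.98 to 6.84), so the difference was not seen at that depth. Unthinned, these cells had a UMI of Rfx6 in 40.7% and 54.7%. Nkx6-1 in somatostatin cells gave 7.18% (3.88 to 12) in WT, level with the 7.04% of WT endothelial cells, and 15.8% (10.2 to 23) in Npc1-/-, against 3.1% of its endothelial cells. A thinned insulin cell of either split and either library carried a median of 4 of the 9 factors, a glucagon or PP cell 3, a somatostatin cell 3 in WT and 4 in Npc1-/-, and an endothelial cell 0. The share of endothelial cells with none was 69.8% in WT and 74.8% in Npc1-/-, with median depths of 7840 and 10285 UMIs before thinning, against 31490.5 and 31997 in PP-low insulin cells.

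**Figure D2:**
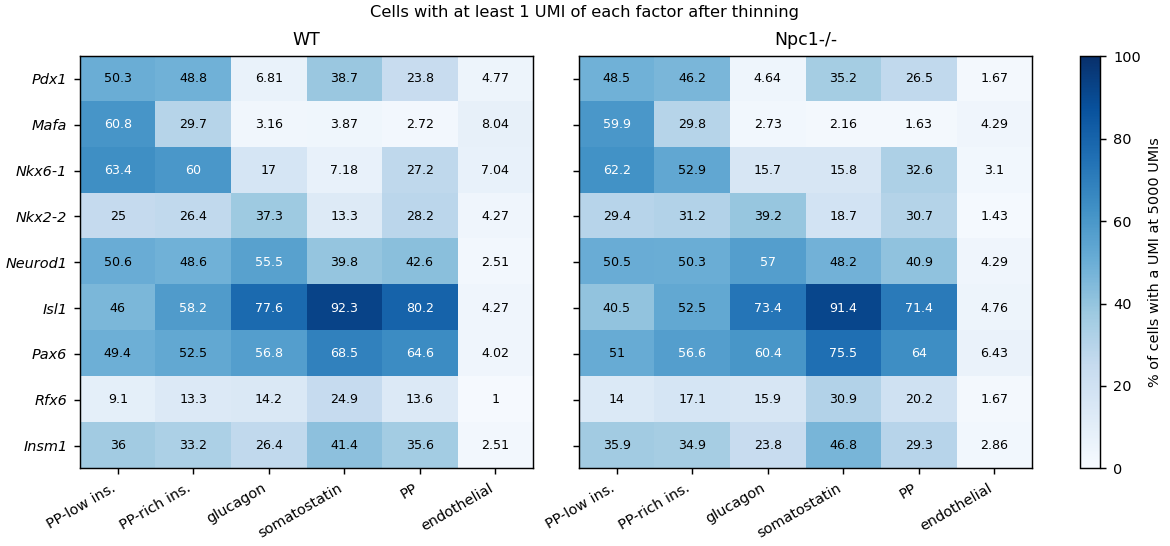
Share of cells with at least 1 UMI of each factor (rows) in each class (columns) after thinning every cell to 5000 UMIs, for WT (left) and Npc1-/- (right), in percent of cells. Isl1 fills from insulin (46% and 40.5% in PP-low) to somatostatin cells (92.3% and 91.4%), while Mafa outside insulin cells stays below its endothelial share (8.04% and 4.29%).

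The next comparison asks which factors set PP-low insulin cells apart from the other hormone classes. Ratios are log2 ratios of CPM with 0.5 counts added, given relative to the median of all genes that reached 5 CPM in a class of the pair. Insulin took 53.8% of UMIs in WT PP-low cells, and the median gene there was lower by 0.59 (WT) and 0.53 (Npc1-/-) against glucagon cells, by 0.78 and 0.71 against somatostatin cells and by 0.50 and 0.48 against PP cells. Of the 9 factors, 4 were at least 2-fold higher in PP-low insulin than in glucagon cells in both libraries and 0 were lower. Across 9779 genes, 5.79% were higher and 6.7% lower by this rule. The 4 were Mafa (5.44 in WT, 6.41 in Npc1-/-), Pdx1 (3.82 and 4.13), Nkx6-1 (3.02 and 2.91) and Insm1 (1.18 in Npc1-/-, and just past the limit in WT with 2.01-fold). The glucagon level of Mafa did not exceed that of endothelial cells. Isl1 stayed inside 2-fold on the lower side, at -0.88 and -0.87.

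Against somatostatin cells, 5 factors were higher in both libraries (Mafa, Nkx6-1, Nkx2-2, Neurod1 and Pdx1, the last with 1.23 and 1.11) and Isl1 alone was lower, at -1.50 and -1.58. The shares over 9848 genes were 5% higher and 7.89% lower. Against PP cells, the same β factors Mafa (5.89 and 5.85), Pdx1 (1.84 and 1.43) and Nkx6-1 (1.76 and 1.22) were higher and Isl1 was lower (-1.04 and -1.15), against 4.04% of 9618 genes higher and 6.44% lower. Pax6 lay between -0.03 and 0.31 in all 6 of these ratios.

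Within insulin cells the split by Ppy and Pyy separated the members. Mafa was about 3-fold lower in PP-rich than in PP-low cells in both libraries, with log2 ratios of -1.59 (-1.68 to -1.50) in WT and -1.55 (-1.62 to -1.48) in Npc1-/-. Nkx6-1 was slightly lower, at -0.28 and -0.33. These 2 were the members at least 1.2-fold lower in both libraries, while Insm1 passed in WT only (-0.30, with -0.20 in Npc1-/-). Isl1 was the 1 member that was higher by that fold in both, at 0.45 (0.39 to 0.52) and 0.35 (0.28 to 0.41), and Rfx6 had 0.32 and 0.22. Over 8707 genes, 5.56% were lower and 5.78% higher in both libraries. Pdx1 differed by -0.18 and -0.16, inside the fold. The median gene moved by 0.16 and 0.18 between these classes.

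PP-rich insulin cells also held more of the other hormones. Sst took 0.639% of their UMIs in WT and 0.395% in Npc1-/-, against 0.00492% and 0.00617% in PP-low cells, and 34 and 29 of their barcodes had a further hormone at 5% or more. When insulin cells with at least 1% of UMIs from Gcg or Sst were left out, Mafa was at -1.59 and -1.50 and Isl1 at 0.32 and 0.28, whereas Nkx6-1 moved to -0.18 in WT, inside 1.2-fold. Mafa thus kept its size without these barcodes.

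The same order held along the Ppy and Pyy share in steps, given here as CPM not set against the median gene. Insulin took 54.5% of WT and 54% of Npc1-/- UMIs in the first step and 38.3% and 36.8% in the last, which raises the CPM of other genes there. Mafa had 278, 238, 174, 98.3 and 62.5 CPM in WT insulin cells with under 0.1%, 0.1 to 0.3%, 0.3 to 1%, 1 to 3% and 3% or more of their UMIs from these peptides, and 297, 281, 188, 120 and 58 in Npc1-/-. Isl1 went over the same steps from 120 to 260 CPM in WT and from 105 to 203 in Npc1-/-. Pax6 went from 137 to 197 and from 138 to 189 CPM, while set against the median gene its log2 ratio of PP-rich over PP-low cells was 0.09 and 0.05. Pdx1 stayed between 132 and 147 CPM in all 10 groups of cells. Nkx6-1 was level up to the third step (218 to 221 CPM in WT, 192 to 198 in Npc1-/-) and lowest in the last (178 and 171).

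**Figure D3:**
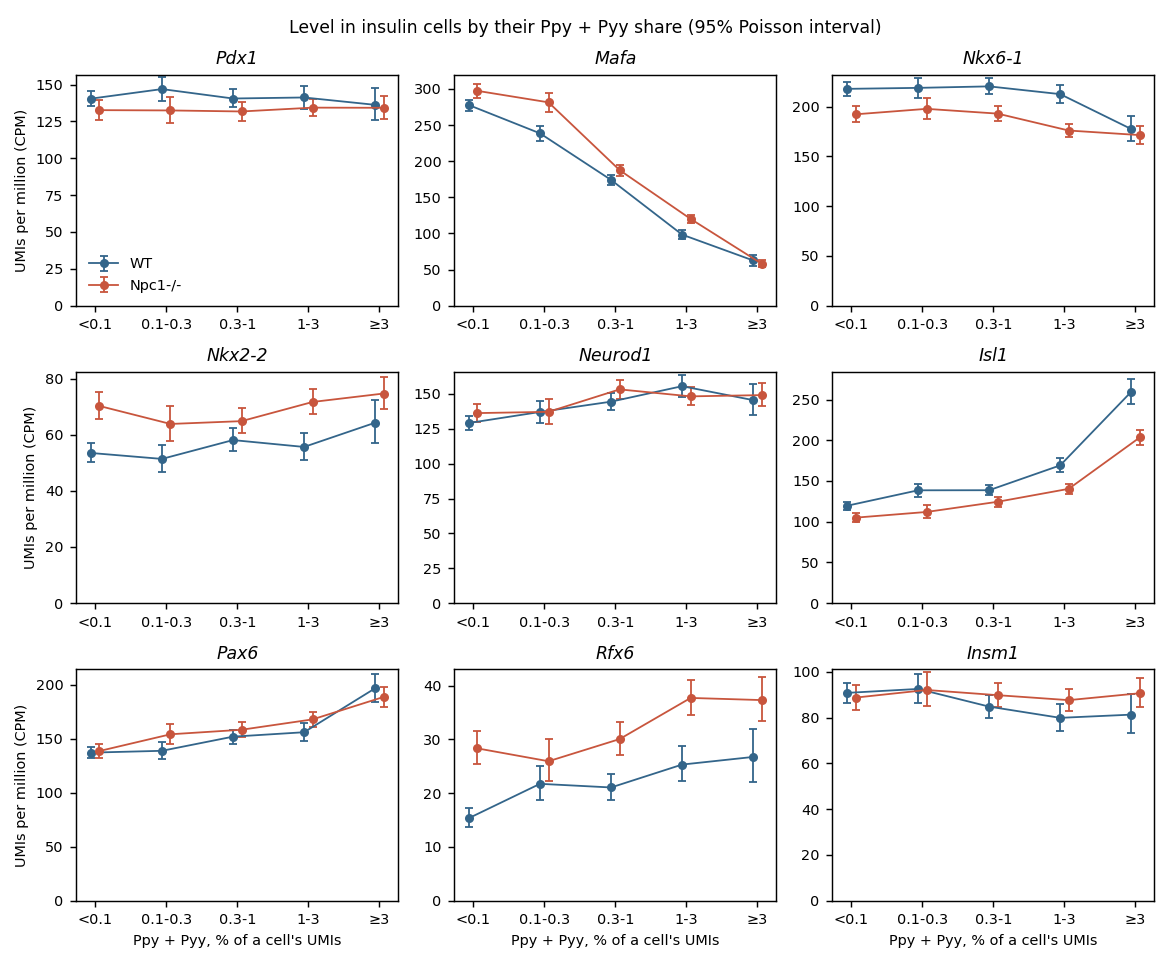
Level of each factor in insulin cells (y axis, CPM, from 0) against the share of UMIs from Ppy and Pyy (x axis, 5 steps) in WT (blue) and Npc1-/- (red), with 95% Poisson intervals. Mafa goes from 278 down to 62.5 in WT and from 297 to 58 in Npc1-/-, Isl1 goes up, and Pdx1 stays between 132 and 147.

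Cells in the cell cycle, with at least 3 of 10 G2/M genes (115 WT and 91 Npc1-/- insulin cells), differed from the other insulin cells in 3 members with CPM intervals apart in both libraries, Nkx6-1 and Mafa on the lower and Insm1 on the higher side. Of 8858 genes, 5.55% were lower and 21.8% higher by this rule, which deep genes meet more easily. Nkx6-1 was at 134 CPM (123 to 147) in cycling and 221 (217 to 225) in other WT insulin cells, and at 117 and 189 in Npc1-/-. Insm1 was the reverse, with 120 and 84.5 CPM in WT and 119 and 87.7 in Npc1-/-. Mafa was at 176 against 199 CPM in WT and 134 against 188 in Npc1-/-. Neurod1 was higher in cycling cells in Npc1-/- (198 against 143 CPM) and overlapped in WT (146 against 140). Pdx1 was apart in WT only (158 against 140), and Nkx2-2 (56.6 against 70) and Rfx6 (24.1 against 32.8) in Npc1-/- only. The cycling cells had 45.2% and 40.4% of UMIs from insulin, against 52.3% and 49.8% in the others.

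The genotype comparison asks whether the factors differ in level between Npc1-/- and WT cells of the same class. In PP-low insulin cells, 1 of the 9 was at least 1.2-fold lower (Isl1) and 1 higher (Rfx6), against 11.7% and 12.8% of 8746 genes. Isl1 had a log2 ratio of -0.27 (-0.33 to -0.21). Rfx6 had 0.53 (0.39 to 0.67), about 1.45-fold. Nkx6-1 lay just inside the fold at -0.26 (-0.31 to -0.21), and Pdx1 was at -0.18 (-0.24 to -0.13) and Nkx2-2 at 0.21 (0.12 to 0.29). Mafa (0.01), Neurod1 (-0.01), Pax6 (-0.01) and Insm1 (-0.07) were within 0.1 of the median gene. The median over the 9 was -0.01, where 0 is that of all genes tested. Isl1 passed 1.2-fold in 11 of 16 other ways of processing and Rfx6 in 16 of 16.

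In PP-rich insulin cells, Isl1 (-0.37, -0.44 to -0.30) and Nkx6-1 (-0.30, -0.37 to -0.23) were past the fold on the lower side, with 11.4% of 9090 genes, and Rfx6 (0.45, 0.27 to 0.63) on the higher side, with 15%. Isl1 is higher in the other islet cells, and the markers of δ and α cells were also lower in these Npc1-/- cells. Summed δ cell markers were at 7499 CPM in WT and 4881 in Npc1-/-, and α cell markers at 7816 and 4489. Of the δ cell factor Hhex there were 16.9 and 8.2 CPM. Summed PP cell markers, which include the Ppy and Pyy that formed the class, went the other way, at 30890 and 36070 CPM. The part of these markers in the Isl1 ratio was not tested. That ratio was -0.31 without insulin cells of at least 1% Gcg or Sst and -0.27 without the highest doublet scores. Mafa had 0.06 (-0.05 to 0.16), and the median over the 9 was -0.04. The level of Mafa over all kept insulin cells together was nevertheless lower in Npc1-/-, at 185 against 198 CPM. Insulin barcodes left out for 50000 UMIs or more numbered 153 in WT and 343 in Npc1-/-. Mafa in them was at 215 CPM in WT and 223 in Npc1-/-, and Nkx6-1 at 191 and 198. In those left out for a mitochondrial share of 10% or more (82 and 60), Mafa was at 333 and 271 CPM and Nkx6-1 at 207 and 190. Mafa was thus lower in Npc1-/- in the kept cells and in those of high mitochondrial share, but not in those of 50000 UMIs or more. In both left-out sets its intervals overlapped between genotypes. PP-rich cells, in which Mafa is low, made 45% (42.7 to 47.3) of Npc1-/- and 26.8% (24.8 to 28.9) of WT insulin cells. With the 2 Npc1-/- classes weighted as in WT, where PP-rich cells gave 24.9% of insulin cell UMIs, Mafa came to 211 CPM. This exceeds WT by about as much as the median gene, which was 0.08 (PP-low) and 0.10 (PP-rich) higher on the log2 scale in Npc1-/- before it was set to 0. The same weighting left Pdx1 at 133 CPM against 141 in WT and Nkx6-1 at 189 against 215. It placed Isl1 at 127 against 147. The weighting describes the split at 1% only, and the part of the class mix in these differences was not tested. Along the 5 steps of Ppy and Pyy, on the CPM scale and thus including that shift, Isl1 was lower in Npc1-/- with intervals apart in 5, and Nkx6-1 in 4, while Rfx6 was higher with intervals apart in 4 and Nkx2-2 and Mafa in 3 each. Of 8858 genes, 3.96% were lower and 8.18% higher in at least 3 steps by this rule, which deep genes meet more easily. Pdx1 was lower in all 5 steps but with overlapping intervals in each.

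In glucagon cells 3 factors were lower past the fold (Mafa -0.98, Pdx1 -0.50 and Isl1 -0.28) and 0 were higher, against 6.7% and 6.48% of 9897 genes. The level of Pdx1 there, 15.1 and 10.9 CPM, compares with 2.93 and 1.99 that free RNA would give if it scaled with insulin transcripts, which were also lower in Npc1-/- (2.07% and 1.49% of the insulin cell level). Mafa, at 8.11 and 4.19 against 4.09 and 2.77, was closer to that level. It did not exceed its endothelial level (13.8 and 7.78 CPM), so its place among the 3 is not read as a change in expression. Pdx1 exceeded its endothelial level, which at 6.81 and 3 CPM was also lower in Npc1-/-. The part of free RNA in these ratios was not tested. Isl1, at 359 and 301 CPM, was far above its 3.04 and 2.02. Insm1 stood at -0.26 (-0.38 to -0.13), just inside the fold.

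Somatostatin cells, the smallest hormone class, had Mafa lower (-1.63, from 32 and 9 UMIs) and Nkx6-1 (1.69, 1.14 to 2.30) and Nkx2-2 (0.56, 0.14 to 0.99) higher, against 19.1% and 19.5% of 10388 genes. Mafa there did not exceed its endothelial level. The Nkx6-1 value was 0.91 when a leading hormone of at least 20% was asked for. In PP cells 0 factors were lower and 2 were higher, Nkx6-1 (0.28, 0.15 to 0.42) and Rfx6 (0.28, 0.04 to 0.52), against 12% and 12.3% of 9971 genes. Pdx1 in PP cells was at 0.24 (0.06 to 0.41). The Nkx6-1 value in PP cells was 0.08, inside the fold, with a stricter cell filter. Medians over the 9 were -0.16 in glucagon, 0.15 in somatostatin and 0.08 in PP cells.

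Isl1 was below the median gene in Npc1-/- in all 5 hormone classes, from -0.37 to -0.16 and with each interval below 0, and was the only one of the 9 to be so. Its somatostatin value turned to 0.07 with a leading hormone of at least 20%. Of 8317 genes, 12.5% were below in all 5, counted by the ratio and not by its interval. Rfx6 (0.19 to 0.53) and Nkx2-2 (0.02 to 0.56) were above in all 5, as were 12.6% of genes, with the interval above 0 in 4 classes for Rfx6 and in 3 for Nkx2-2. For 1 and 2 of 9 members these shares, by ratio alone, are near the background. No share over all genes was formed for the number of classes with an interval clear of 0. Pdx1 and Nkx6-1 had intervals on both sides of the median gene in different classes, as had 5.3% of the 8317 genes. Deep genes meet that rule more easily. The 5 classes of a genotype come from 1 library, so they are not independent of each other.

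**Figure D4:**
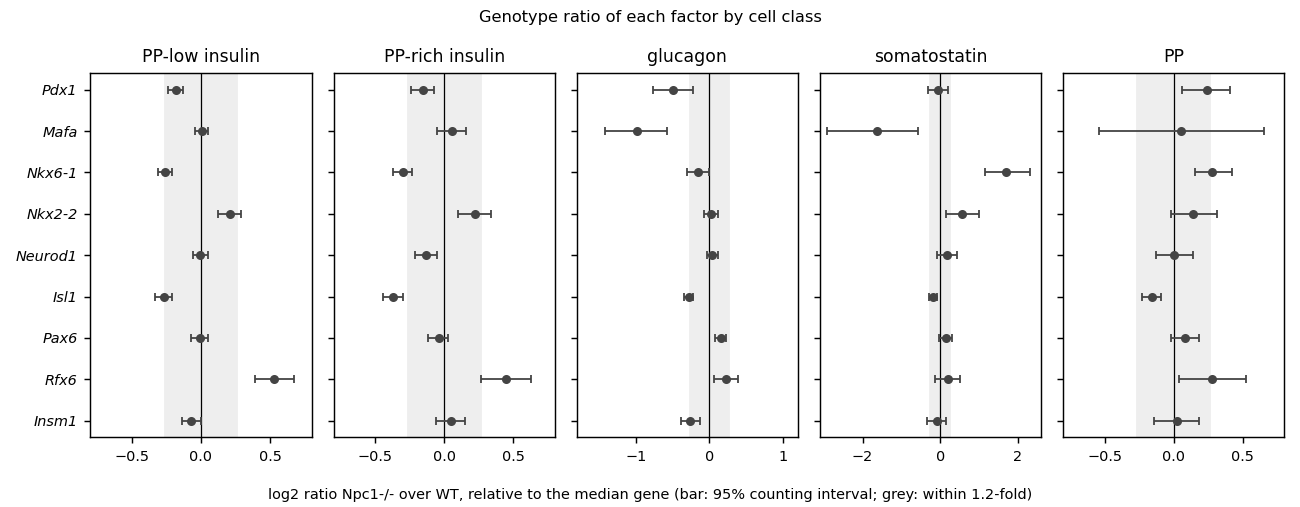
Log2 ratio of Npc1-/- over WT for each factor (rows) in 5 hormone classes (panels, whose x axes differ in range), relative to the median gene, with 95% counting intervals; the grey band spans 1.2-fold either way. Isl1 is left of 0 and Rfx6 right of 0 in every panel, and Nkx6-1 changes side between insulin (-0.26 and -0.30) and PP cells (0.28).

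Other genes of the same network were taken from 3 lists. Of 33 other islet transcription factors, 16 had at least 5 CPM in PP-low insulin cells of either library, of which 1 was lower by 1.2-fold in Npc1-/- and 6 were higher (median 0.23), beside the 11.7% and 12.8% of all genes that apply to the 3 lists. The lowest were Mnx1, a β cell homeodomain factor (-0.39), and Foxa2, a forkhead factor (-0.16). Gata6, a zinc finger factor of the early pancreas, was on the higher side (0.60). Among 14 cofactors, 1 was lower and 4 were higher, with Hdac1 (-0.31) and Tle2 (-0.04) lowest and the chromatin remodeller Chd4 (0.40) and the corepressor Tle3 (0.40) highest. Ldb1, the partner of Isl1, was at 0.32 (0.19 to 0.45). Ldb1 is named outside the rule, after its value was seen.

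Of 18 known β cell targets of these factors, 3 were lower in Npc1-/- PP-low insulin cells and 2 higher, with a median of -0.11. The lowest were Ucn3, a peptide of mature β cells (-0.38, -0.43 to -0.33), and Glp1r, the receptor for an incretin (-0.28, -0.56 to -0.01). Glp1r was close to the limit of 5 CPM, at 6.7 in WT and 5.9 in Npc1-/-. The highest were the calcium channel gene Cacna1d (0.30) and Abcc8 (0.27), a subunit of the ATP-sensitive potassium channel. Between PP-rich and PP-low cells, 8 of the 18 were lower by 1.2-fold in both libraries and 0 were higher, against the 5.56% and 5.78% of all genes given above, with medians of -0.30 in WT and -0.29 in Npc1-/-. Ins1 and Ins2, which also served to form the classes, are among the 18. Ucn3 led in both, at -1.60 and -1.70, next to -1.59 and -1.55 for Mafa.

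The genes most like each member over the 12 class and library sums were found by Pearson's r of log2(CPM + 1) among 12135 genes, as a description with no test. The 12 points come from 2 libraries and share the contrast between hormone and endothelial cells, so high values are common. Pdx1 was closest to Iapp (0.989), the β cell peptide amylin, then Jakmip1 and Vstm2l. Mafa was closest to Sytl4 (0.988), a granule protein, then the ion channel gene Trpm5 and Fhdc1. Nkx6-1 had lower values, led by Tmem163 (0.96), Xk and Ina. Nkx2-2 was closest to Il6ra (0.996), Wnt4 and Cux2, Neurod1 to Cacna1d (0.993), Gm15706 and Myt1l, and Isl1 to Morf4l2, Kcnk1 and Syt5 (0.995 each). Pax6 was closest to Slc7a14 (0.997), Atp6v0e2 and Ildr1, Rfx6 to Cfap36 (0.992), Rhpn2 and Mmp24, and Insm1 to Emb (0.995), Marveld3 and Snph. Among the members themselves, r ran from 0.97 between Pax6 and Rfx6 to -0.16 between Isl1 and Mafa.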

How the data were processed

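For 2 libraries the authors deposited raw counts of UMIs by gene and barcode, made with Cell Ranger 3.1.0 on mm10 per the processing notes, which also name Seurat 4.0.3. They hold the barcodes that Cell Ranger called as cells. The labels name version 3 of the 10x 3′ reagents and the paper another version. Filters and classes were as given above; no doublets were removed, and Scrublet, whose own threshold marked 65 WT and 40 Npc1-/- barcodes, served in an alternative only. Counts were summed per class and library and scaled to CPM, with exact Poisson intervals for sums, Clopper-Pearson intervals for shares and conditional binomial intervals for ratios, at 95%. PCR copies were merged by UMI. The intervals of sums and ratios do not cover the spread between cells, and none of the intervals covers the spread between animals. Ratios had 0.5 counts added and were set against the median gene with at least 5 CPM. Past the fold means 1.2-fold between genotypes or insulin classes and 2-fold between hormone classes. The median depth of kept barcodes was 18905 UMIs in WT and 21381 in Npc1-/-. Scripts ran under scanpy 1.11.5, pandas 2.3.3, scipy 1.17.1 and Python 3.11.15, with edgeR 4.0.16 in R 4.3.3 for TMM factors only. The calculation of the ratios was checked on simulated counts with known folds and counting error only. Those counts held no spread between cells, pools or libraries, so the check does not bear on the genotype differences. Of 12 barcodes shared by the libraries, 3 were kept in both. All 9 members, the 3 most similar genes of each, and the 2 highest and 2 lowest of each list are named, except 1 list gene that is not reported here. Summed markers of other islet cells in insulin classes were 2609 to 7816 CPM (α) and 254 to 7499 CPM (δ), and those of non-endocrine cells were immune 68.1 to 144 CPM, stellate 16.4 to 31.6, acinar 20.2 to 104, duct 158 to 175 and endothelial 10.4 to 59.3 in sum. The members and lists were chosen with earlier results of these data known.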

Additional observations from a re-analysis of the deposited data

Results flagged for a closer look

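For 2 members the genotype ratio (log2, Npc1-/- over WT, relative to the median gene) had counting intervals on opposite sides of 0 in different hormone classes, which 5.3% of 8317 genes also had. Deep genes meet this rule more easily. Pdx1 was at -0.18 in PP-low insulin, -0.15 in PP-rich insulin and -0.50 in glucagon cells, and at 0.24 in PP cells. Nkx6-1 was at -0.26 in PP-low and -0.30 in PP-rich insulin cells, and at 0.28 in PP and 1.69 in somatostatin cells. Its interval in WT somatostatin cells (12.9 CPM) overlapped that of endothelial cells (11.9 CPM). In Npc1-/- somatostatin cells, 5 of 141 cells gave 48.5% of its UMIs. The somatostatin ratio was 0.91 with a leading hormone of at least 20%, and the PP cell ratio was 0.08 with a stricter cell filter. With 1 library per genotype the difference between classes was not tested.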

How the results depend on the processing

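In 16 alternatives, 81 single ratios were recomputed and 66 stayed on the same side of the median gene in all 16; none of those past the fold changed side. The count of members lower in Npc1-/- PP-low insulin cells (1) rests on Isl1 and Nkx6-1, which lie near 1.2-fold. It was 0 with the looser cell filter, a Ppy and Pyy split at 0.5%, CPM without hormone genes, or a median gene from 20 CPM. It was 2 without the highest doublet scores, with a split at 2%, with TMM factors, or with a median gene from 1 CPM. Isl1 ranged there from -0.42 to -0.21 and Rfx6 from 0.44 to 0.60. In PP-rich cells Nkx6-1 ranged from -0.40 to -0.17 and was past the fold in 13 of 16, and Rfx6 from 0.25 to 0.49, past it in 15. The 2 members lower in PP-rich than PP-low cells in both libraries became 1 (Mafa) with the stricter filter, without the highest doublet scores, without barcodes of a further hormone, with a split at 0.5%, with the mean over cells, with CPM without hormone genes, and without insulin cells of at least 1% Gcg or Sst. The last alternative, and leaving out shared barcodes, were added after the data were seen. The 4 members higher than in glucagon cells were 3 or 4 in each. Of the hormone classes, somatostatin cells had the fewest UMIs (2714984 and 2431960). Thinning to 2500 UMIs lowered the mean number of factors per PP-low insulin cell from 3.91 to 2.38 in WT and from 3.92 to 2.29 in Npc1-/-. No paired analysis was possible because each genotype has 1 library. For the same reason no replicate could be left out.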
